A study of Mus musculus with 24 samples.

Results

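The replication-dependent histone genes supply the linker histone H1 and the core histones H2A, H2B, H3 and H4 that package new DNA. They were taken as the protein-coding rows whose symbols follow the clustered histone nomenclature (H1f, H2ac, H2bc, H3c and H4c with a number). The rule used names only, no measured value, and found 72 genes among 57010 rows, of which 21771 are protein-coding. There are 11 H1, 18 H2A, 18 H2B, 12 H3 and 13 H4 genes. The name pattern also takes in genes that the term replication-dependent does not cover. H1f0 and H1f10 encode linker histones made outside S phase, and H1f6, H1f7, H1f8, H1f9, H2ac1 and H2bc1 are germline variants. H2ac25 and H2bc27 were listed for comparison as replication-independent histone genes. All of these were kept, and the 2 replication-independent linkers are reported separately below, while H2ac25 and H2bc27 are counted with H2A and H2B.

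Replication-dependent histone messages are made in S phase, when DNA is copied, and are lost when replication ends. They are short and lack introns. They are the metazoan messages that normally end in a conserved stem-loop in place of a poly(A) tail, and the stem-loop is bound by SLBP, which carries them through processing, export, translation and decay. Most of these genes lie together in clusters, where several near-identical copies encode the same protein.

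GT1-7 is an immortalised mouse line of hypothalamic neurons that make gonadotropin-releasing hormone, and Mkrn3 (makorin RING finger protein 3) is a zinc finger ubiquitin ligase whose loss in people brings puberty forward. In the RNA immunoprecipitation (RIP) experiment, cells were transfected for 24 h with 6 µg of a GFP-Mkrn3 plasmid or of a GFP plasmid. RNA bound to GFP-trap beads (IP) was sequenced beside 5% of the lysate (input), which gave GFP-Mkrn3 IP, GFP IP, GFP-Mkrn3 input and GFP input. In the fractionation experiment, total and cytoplasmic RNA came from Mkrn3ox cells, which carry GFP-Mkrn3 stably, and from wt cells, which gave Mkrn3ox total, wt total, Mkrn3ox cytoplasm and wt cytoplasm. Each of the 8 groups has 3 libraries. The sources used here name neither the promoters of the transgenes nor whether Mkrn3ox is 1 clone. The labels do not say that replicates came from separate cultures, so p-values measure the spread between these libraries, which may be technical.

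Library totals ran between 6254703 and 14575652 counts in RIP and between 374386 and 759271 counts in the fractionation experiment. The Mkrn3 row held 86579 to 141568 counts in GFP-Mkrn3 IP and 33 to 60 in GFP IP, and 28280 to 32451 counts in GFP-Mkrn3 input and 36 to 60 in GFP input, as the plasmid labels state. It held 0 to 5 counts in the Mkrn3ox libraries and 0 to 1 in the wt libraries, and the 3′ end of that transgene is not described, so the row does not check those labels. Of 12 neuronal markers 6 to 8 had counts in each group, Gnrh1 in all of them, while Nefl, Nefm and Scg2 had 0 in all 24 libraries. Of 20 markers of glia, immune, stromal and endothelial cells 8 to 15 had counts in each group, with the stromal gene Col1a2 present in every group and the glial genes Slc1a3 and Mog at 0 in all 24 libraries. The summed level of the neuronal markers was 275 to 313 TMM-scaled CPM (a gene's share of the library's counts, scaled to a fixed total) in GFP-Mkrn3 IP, 162 to 179 in GFP IP, 405 to 454 in GFP-Mkrn3 input and 373 to 429 in GFP input. The summed level of the other-cell markers was 655 to 664 CPM in GFP-Mkrn3 IP, 909 to 1034 in GFP IP, 523 to 551 in GFP-Mkrn3 input and 518 to 554 in GFP input, and the part of either marker list in the IP results was not tested.

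All 72 genes were found in the RefSeq table of the GRCm38.p6 assembly, 54 on chromosome 13, 10 on chromosome 3, 3 on chromosome 6, 3 on chromosome 11 and 2 on chromosome 15. The span is under 1000 bp for 62 of them, with family medians of 794 bp for H1, 504.5 bp for H2A, 491.5 bp for H2B, 502 bp for H3 and 406 bp for H4. Genes described in full below lie at these RefSeq positions: H4c14 (ENSMUSG00000091405) at chr3:96262934-96263317, H4c6 (ENSMUSG00000069274) at chr13:23551286-23551668, H4c1 (ENSMUSG00000060093) at chr13:23760795-23761249, H1f4 (ENSMUSG00000051627) at chr13:23621777-23622558, H1f3 (ENSMUSG00000052565) at chr13:23555032-23555807, H3c7 (ENSMUSG00000100210) at chr13:23544052-23544954, H1f0 (ENSMUSG00000096210) at chr15:79028212-79030504, H1f10 (ENSMUSG00000044927) at chr6:87980421-87981482 and H2bc21 (ENSMUSG00000068854) at chr3:96221072-96223738. Another gene lies within 5 kb of 67 members, and 6 are overlapped by one (H1f9, H2ac1, H2bc1, H2ac25, H2bc6 and H2bc27). With copies this alike and this close, reads can be split between paralogues or dropped by the counting, so values of single genes within a family are uncertain where copies share sequence.

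Promoters are shown for H4 and H1 genes described in full below and for 1 H2B gene, so that the letters before their starts can be read side by side; no relation of these letters to the measured levels was tested. RefSeq promoter windows of 300 bases, from 250 before to 50 after the annotated start, were available for 67 members as 68 windows. They were searched on both strands for the TATA box letters TATAAA, the CCAAT box letters CCAAT, the octamer ATTTGCAT known from H2B promoters, and AAACACA, a motif known from H1 promoters; none of these overlaps another in the sequences printed. The 7 sequences below are the 150 bases that end just before the start, 5′ to 3′ on the gene's strand, with every match on either strand in capitals. H4c1 and H4c6 are H4 genes, H1f3 and H1f4 are replication-dependent linkers, H1f0 and H1f10 are the replication-independent linkers, and H2bc8 shows the octamer.
H4c1 (chr13:23761250-23761399, minus strand): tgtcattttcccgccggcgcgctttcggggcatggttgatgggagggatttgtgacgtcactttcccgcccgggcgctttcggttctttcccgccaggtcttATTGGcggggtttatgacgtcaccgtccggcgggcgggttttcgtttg
H4c6 (chr13:23551669-23551818, minus strand): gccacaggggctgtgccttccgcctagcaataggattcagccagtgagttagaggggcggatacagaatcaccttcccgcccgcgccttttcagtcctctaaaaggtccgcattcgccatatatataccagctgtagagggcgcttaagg
H1f3 (chr13:23554882-23555031, plus strand): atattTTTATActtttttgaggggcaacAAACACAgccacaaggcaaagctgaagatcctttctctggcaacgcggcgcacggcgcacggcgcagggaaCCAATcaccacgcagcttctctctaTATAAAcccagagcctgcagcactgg
H1f4 (chr13:23622559-23622708, minus strand): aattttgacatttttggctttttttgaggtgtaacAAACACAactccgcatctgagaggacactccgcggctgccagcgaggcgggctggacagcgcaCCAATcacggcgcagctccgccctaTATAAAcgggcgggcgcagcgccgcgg
H1f0 (chr15:79028062-79028211, plus strand): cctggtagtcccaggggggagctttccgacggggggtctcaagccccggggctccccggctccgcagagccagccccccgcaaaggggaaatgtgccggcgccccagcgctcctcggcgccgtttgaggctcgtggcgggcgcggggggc
H1f10 (chr6:87981483-87981632, minus strand): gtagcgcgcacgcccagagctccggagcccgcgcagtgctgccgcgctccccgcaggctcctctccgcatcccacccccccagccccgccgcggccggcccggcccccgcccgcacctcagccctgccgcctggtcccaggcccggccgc
H2bc8 (chr13:23571250-23571399, plus strand): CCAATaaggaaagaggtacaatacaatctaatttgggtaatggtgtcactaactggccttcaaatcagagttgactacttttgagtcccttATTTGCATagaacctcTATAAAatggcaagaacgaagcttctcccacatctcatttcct

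CCAAT stood in all 18 H2A windows, all 17 H2B windows and all 10 H3 windows, in 8 of 11 H1 windows, and in 3 of 12 H4 windows, beside 37.4% of all 32851 windows. TATAAA stood in 51.5% of the members' windows and in 13.6% of all windows. The octamer ATTTGCAT was found in 7 of 18 H2A windows and 7 of 17 H2B windows and in no H1, H3 or H4 window, beside 1.74% of all windows. Windows of neighbouring H2A and H2B genes can share bases, so these are not independent counts. AAACACA was found in 5 of 11 H1 windows, among them H1f2, H1f3, H1f4 and H1f5, and in 7.18% of all windows. None of the 4 motifs lies in the windows of H1f0 and H1f10. A match is a description of letters and not a measured binding site.

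Histone messages were abundant in the RIP inputs and nearly absent from the fractionation libraries. Leaving out H1f0, H1f10 and H2bc21, the other 69 members together had 129 counts over the 12 fractionation libraries, or 20.5 CPM pooled over libraries without TMM scaling, against 155322 counts over the 6 RIP inputs, or 3190 CPM. Of the 72 genes, 53 had 0 counts in all 12 fractionation libraries, 15 had 1 to 20 counts and 4 had more. The 4 were H1f0 with 747 counts, H2bc21 with 139, H1f10 with 66 and the oocyte linker H1f8 with 38, which lay in 4 libraries and had 0 counts in RIP.

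H4c14, an H4 gene on chromosome 3, had 0 fractionation counts, which allows up to 0.476 CPM, and 14714 counts in the RIP inputs, or 302 CPM. H1f1, a replication-dependent linker, had 0 fractionation counts and 14698 RIP input counts. H1f4, the linker with the most counts in RIP, had 1 fractionation count and 24284 RIP input counts, or 499 CPM. The replication-independent H1f0, whose message is polyadenylated, stood at 119 CPM in the fractionation libraries and 107 CPM in the RIP inputs. H2bc21, an H2B gene, stood at 22.1 CPM in the fractionation libraries and 10.2 CPM in the RIP inputs. The labels name CEL-seq2, a method that primes on poly(A), for both experiments. The gap of H4c14, 302 CPM in the RIP inputs beside at most 0.476 CPM in the fractionation libraries, is far wider than counting error at the fractionation depth, and the part of library preparation and cells in it was not tested.

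**Figure D1:**
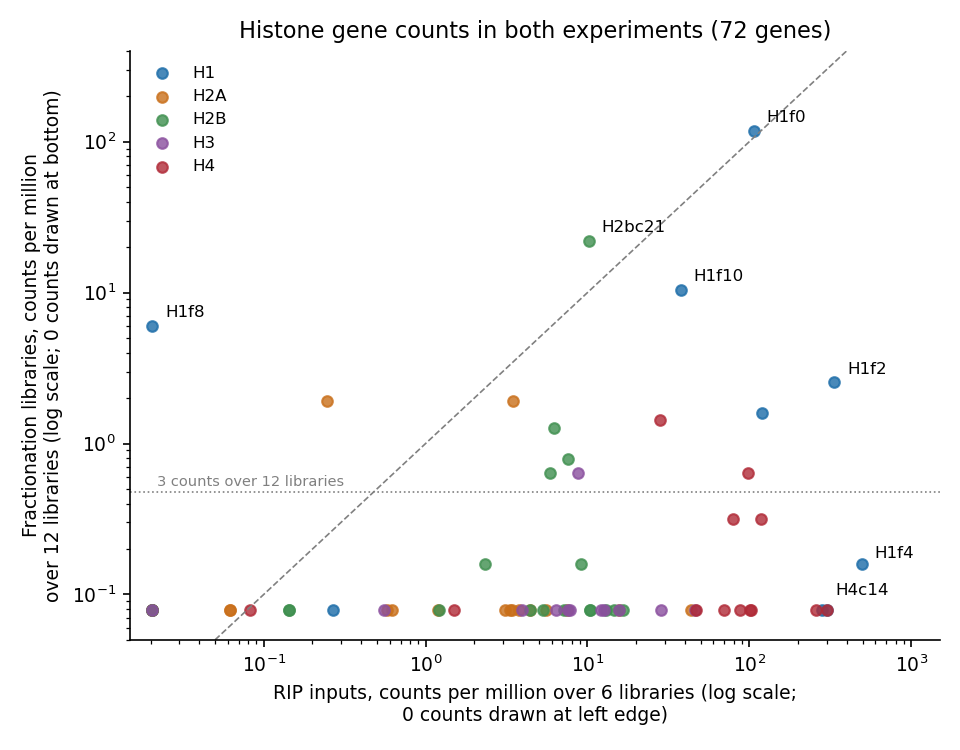
CPM of each of the 72 histone genes in the 12 fractionation libraries (vertical, log scale) against the 6 RIP inputs (horizontal, log scale), each summed over libraries and coloured by family; 0 counts are drawn at the edges. H1f0, at 119 and 107 CPM, lies near the dashed line of equality, while H4c14 and H1f4 lie far below it.

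In RIP, 55 of the 72 genes had enough counts to be tested, 55 had counts in all 12 libraries, 8 had 1 to 20 counts and 5 had 0. The 17 that were not tested had at most 65 counts each over the 12 libraries and include the 6 germline variants. Members took 0.124%, 0.143% and 0.109% of the counts in the GFP-Mkrn3 IP libraries and 0.186%, 0.192% and 0.188% in the GFP IP libraries. Their share was 0.332%, 0.333% and 0.356% in GFP-Mkrn3 input and 0.321%, 0.346% and 0.317% in GFP input. The shares of the 4 sets were thus lowest in GFP-Mkrn3 IP and did not overlap between GFP-Mkrn3 IP, GFP IP and the inputs. Each share has an exact (Clopper-Pearson) 95% interval, for example 0.122% to 0.126% in GFP-Mkrn3 IP library 1, that covers counting error only.

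Levels below are CPM scaled by TMM, a normalization that assumes most genes keep their share, and differences are log2 fold changes ± SE from edgeR's quasi-likelihood test, with p adjusted (Benjamini-Hochberg) over all 13052 genes tested in RIP and a call at 0.05. The scaling compares shares, so RNA recovered in all cannot be read from them, and since each library pools many cells, fewer cells in S phase and less histone RNA per cell cannot be told apart. GFP-Mkrn3 input against GFP input gave 0 of 55 members called, where 0.00766% of all tested genes were called higher and 0.00766% lower, 0.0153% in all. An unadjusted p under 0.05 was found for 3 of 55 members, beside 734 of 13052 tested genes. DESeq2 called 0 as well, and 1 member was called with no filter on low counts. The median log2 difference of the members was -0.04, beside -0.00 for all tested genes.

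Against its own input, GFP-Mkrn3 IP had 0 members higher and 27 of 55 lower, where 13.9% of all tested genes were called higher and 12.8% lower, 26.7% in all. GFP IP against GFP input had 0 higher and 34 of 55 lower, where 25.1% of all tested genes were higher and 25.2% lower, 50.3% in all. The members' median log2 fold changes were -1.04 and -1.05, beside 0.03 and -0.00 over all tested genes. Histone messages were therefore at lower shares in both precipitates than in the lysates, by a like median, but the families behind those medians differed.

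GFP-Mkrn3 IP against GFP IP had 3 members higher and 21 lower, where 20.4% of all tested genes were called higher and 17.2% lower, 37.6% in all. The difference of the IP-to-input ratio between GFP-Mkrn3 and GFP, which tests the change beyond the GFP control in 1 model, had 2 members higher and 15 lower, where 13.2% and 11.1% of all tested genes were called, 24.3% in all. The lower share of members is above the background in both, and every lower call of the ratio difference is an H4 or H1 gene. Without GFP-Mkrn3 IP library 3 these counts become 10 higher and 19 lower between IPs, and 8 higher and 15 lower for the ratio difference. The shares of all tested genes called without that library are not reported here, so these shifts cannot be read as particular to the members. Leaving out other libraries brings the higher calls of the ratio difference to 0, as without GFP IP library 2, GFP-Mkrn3 input library 1 or 2, or GFP-Mkrn3 IP library 1, or to 1, and without GFP IP library 1 or 2 or GFP-Mkrn3 IP library 2 the higher calls between IPs come to 2.

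**Figure D2:**
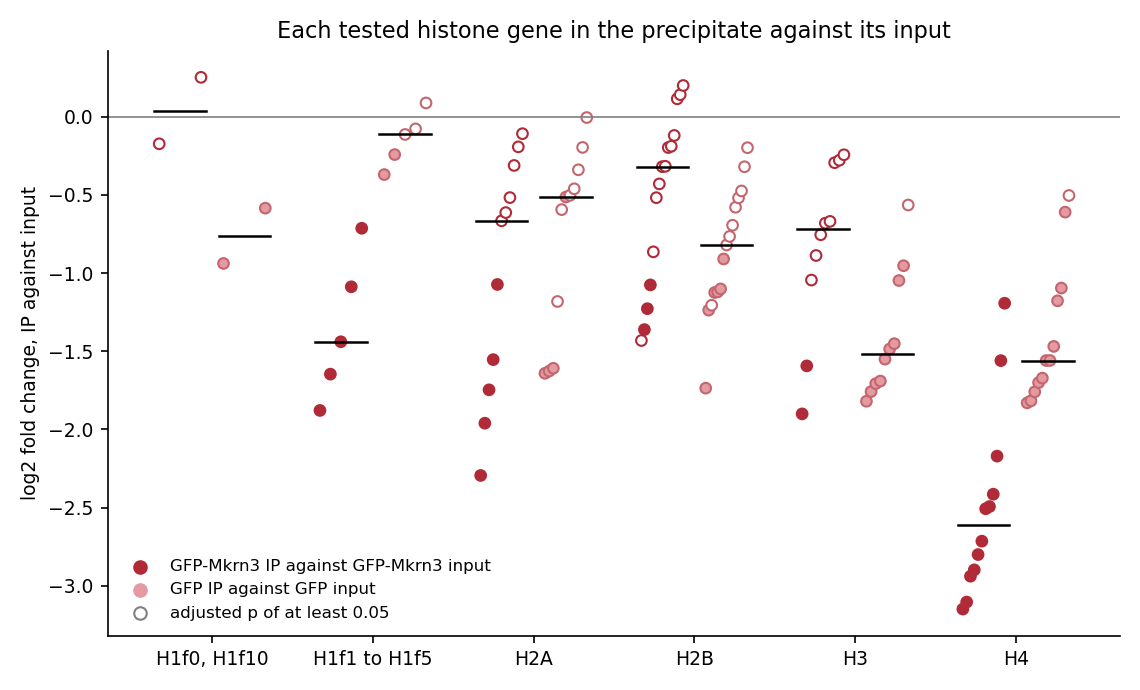
Log2 fold change of each tested histone gene in GFP-Mkrn3 IP against GFP-Mkrn3 input (dark, left of each pair) and GFP IP against GFP input (light, right), by family; filled points have an adjusted p under 0.05 and lines are medians. H4 genes reach the lowest values in GFP-Mkrn3 IP, and H1f1 to H1f5 are called lower there in all 5 cases. Of all tested genes, 12.8% are called lower there.

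Histone H4 forms the centre of the nucleosome with H3. H4 had the lowest family median in GFP-Mkrn3 IP against its input, -2.61. Of 12 tested H4 genes, 12 were lower in GFP-Mkrn3 IP than in its input, 11 were lower in GFP IP than in its input, 11 were lower in GFP-Mkrn3 IP than in GFP IP, and 10 had a lower ratio beyond GFP. Of all tested genes, 12.8%, 25.2%, 17.2% and 11.1% were called lower in the same order. The family's summed level was 211, 211 and 208 CPM in GFP-Mkrn3 IP, 510.1, 471 and 391 in GFP IP, 1319, 1256 and 1276 in GFP-Mkrn3 input, and 1227, 1364 and 1282 in GFP input. No library of GFP-Mkrn3 IP reached the lowest of GFP IP, and no IP library reached the lowest input.

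H4c14 stood at 42.7, 34.1 and 57.9 CPM in GFP-Mkrn3 IP, 120.4, 100.3 and 75.5 in GFP IP, 334, 292 and 303 in GFP-Mkrn3 input, and 275, 303 and 298 in GFP input. Its level fell to 0.144 of input in GFP-Mkrn3 IP (log2 -2.80 ± 0.16, adjusted p = 5.71e-10) and to 0.339 of input in GFP IP (-1.56 ± 0.15, adjusted p = 1.64e-07). All GFP-Mkrn3 IP libraries lie under all GFP IP libraries, which lie under all inputs, while the inputs overlap. The ratio beyond GFP was -1.24 ± 0.22 (adjusted p = 0.000611).

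H4c6, whose promoter is printed above, stood at 28.9, 24.2 and 34.6 CPM in GFP-Mkrn3 IP, 83.2, 79.0 and 73.5 in GFP IP, 279, 248 and 221 in GFP-Mkrn3 input, and 239.9, 271 and 288 in GFP input. It fell by 3.10 ± 0.13 on the log2 scale in GFP-Mkrn3 IP (adjusted p = 5.2e-12) and by 1.76 ± 0.12 in GFP IP (adjusted p = 1.54e-09), and the ratio beyond GFP was -1.34 ± 0.17. H4c1 had the largest ratio difference of the 55 members, -1.68 ± 0.22 (adjusted p = 5.24e-05), from 10.4, 9.35 and 16.7 CPM in GFP-Mkrn3 IP, 39.9, 31.9 and 30.4 in GFP IP, 107, 99.4 and 109.6 in GFP-Mkrn3 input, and 92.7, 95.5 and 95.4 in GFP input. In both genes the IP libraries lie under all inputs, and the GFP-Mkrn3 IP libraries lie under all GFP IP libraries.

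The other H4 genes differ in size rather than direction. Log2 fold changes in GFP-Mkrn3 IP against input were -2.94 for H4c12, -2.90 for H4c16, -2.71 for H4c11, -2.51 for H4c2, -2.49 for H4c8, -2.41 for H4c3, -2.17 for H4c9, -1.56 for H4c18 and -1.19 for H4c4. The ratio beyond GFP was lower for H4c3 (-1.32), H4c12 (-1.27), H4c16 (-1.08), H4c11 (-1.01), H4c9 (-0.99), H4c2 (-0.95) and H4c8 (-0.66), and did not pass the test for H4c4 (-0.58, adjusted p = 0.134) or H4c18 (-1.06, adjusted p = 0.314), the H4 gene with 3 to 16 counts a library. H4c8 fell by 1.83 in GFP IP against its input, and GFP-Mkrn3 IP differed from GFP IP by -0.52 (adjusted p = 0.0219). That call between IPs ends without GFP IP library 2 (-0.28, adjusted p = 0.229), without GFP-Mkrn3 IP library 1, with library size alone (-0.34, adjusted p = 0.13) and with the compared groups only (adjusted p = 0.067), and 1 of 6 leave-outs ends that of H4c4. Among alternatives, 7 of 12 leave-outs and 1 other setting end the call of H4c8 in the ratio difference, and 4 leave-outs and 1 other setting end that of H4c11. The call of H4c18 in GFP-Mkrn3 IP against input is ended by 4 of 6 leave-outs. H4c4 was lower in GFP IP (-0.61), a call that 2 leave-outs and 1 other setting end. H4c17 had 6 counts in RIP and was not tested.

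**Figure D3:**
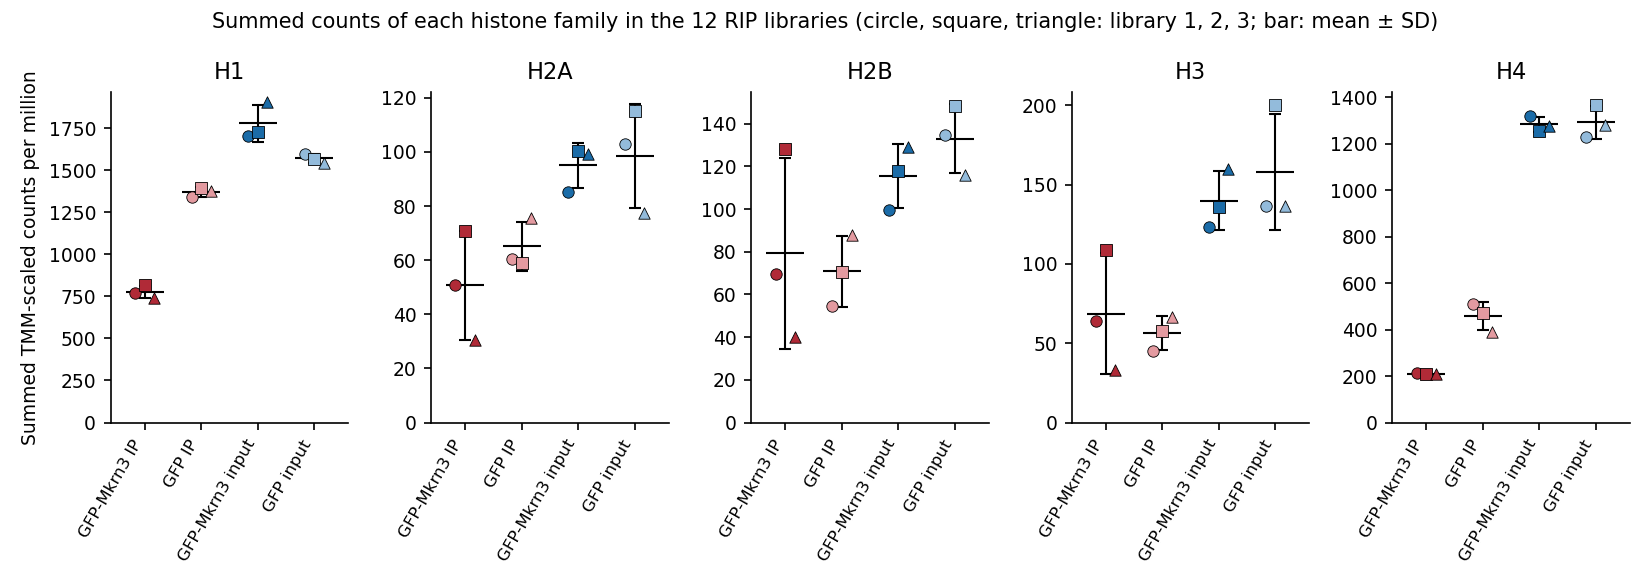
Summed TMM-scaled CPM of each histone family in the 12 RIP libraries, with library 1 as circle, 2 as square and 3 as triangle, and mean ± SD. The sums of H4 and H1 are tight in GFP-Mkrn3 IP (208 to 211 and 743 to 817 CPM). Those of H2A, H2B and H3 spread there, with library 2 high and library 3 low. Single H4 genes are less even than their sum: in libraries 2 and 3, H4c4 stood at 55.5 and 27.2 CPM, and H4c14 at 34.1 and 57.9 CPM.

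Linker histones bind the DNA between nucleosomes. H1f1 to H1f5, the somatic replication-dependent subtypes, include the 4 most counted members of RIP, and all 5 were lower in GFP-Mkrn3 IP than in its input, lower in GFP-Mkrn3 IP than in GFP IP, and lower in ratio beyond GFP. Of all tested genes, 12.8%, 17.2% and 11.1% were called lower in the same order. These 5 linkers were near input in GFP IP, where 25.2% of all tested genes were called lower. There H1f2 (-0.24, adjusted p = 0.016) and H1f3 (-0.37, adjusted p = 0.000874) were called lower and the others were not. Leaving out 1 library ends the H1f2 call in 3 of 6 cases.

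H1f4 stood at 251, 254 and 229.6 CPM in GFP-Mkrn3 IP, 405, 492 and 449 in GFP IP, 501, 511 and 551 in GFP-Mkrn3 input, and 475, 478 and 467 in GFP input. GFP IP overlapped GFP input (-0.08 ± 0.08, adjusted p = 0.459), while every GFP-Mkrn3 IP library lay under every other library of RIP (-1.09 ± 0.08 against its input, adjusted p = 4.19e-08). The ratio beyond GFP was -1.01 ± 0.12 (adjusted p = 2e-05).

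H1f3 stood at 84.0, 78.3 and 88.4 CPM in GFP-Mkrn3 IP, 194, 186 and 198 in GFP IP, 291, 306 and 324 in GFP-Mkrn3 input, and 233, 255 and 258 in GFP input. It was the linker with the largest fall against input in GFP-Mkrn3 IP (-1.88 ± 0.08, adjusted p = 1.57e-11), and its ratio beyond GFP was -1.51 ± 0.12 (adjusted p = 1.76e-07). H1f1 had a ratio difference of -1.53 ± 0.15 (adjusted p = 4.92e-06), with 97.5, 109 and 124 CPM in GFP-Mkrn3 IP, 245, 237 and 236 in GFP IP, 325, 312 and 396 in GFP-Mkrn3 input, and 295, 239.5 and 243 in GFP input. Both linkers were also somewhat higher in GFP-Mkrn3 input than in GFP input (0.30 ± 0.08 for H1f3 and 0.41 ± 0.11 for H1f1), values that missed the adjusted threshold (adjusted p = 0.71 each).

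H1f2 stood at 126, 119 and 133 CPM in GFP-Mkrn3 IP, 298, 269 and 265 in GFP IP, 332, 334 and 357 in GFP-Mkrn3 input, and 345, 317 and 322 in GFP input, a ratio beyond GFP of -1.20 ± 0.11 (adjusted p = 3.12e-06). H1f5 moved least of the 5, at 74.9, 93.2 and 57.0 CPM in GFP-Mkrn3 IP, 109, 120.4 and 137 in GFP IP, 116, 129 and 125 in GFP-Mkrn3 input, and 108, 119 and 117 in GFP input. Its ratio beyond GFP was -0.80 ± 0.19 (adjusted p = 0.00462), and no library of GFP-Mkrn3 IP overlapped another group.

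The replication-independent linkers went the other way. H1f0, the linker of cells that leave the cell cycle, stood at 91.9, 109 and 86.2 CPM in GFP-Mkrn3 IP, 66.0, 72.5 and 73.6 in GFP IP, 113, 104 and 107 in GFP-Mkrn3 input, and 109, 102 and 107 in GFP input. GFP IP was lower than its input (-0.58 ± 0.10, adjusted p = 6.75e-05), GFP-Mkrn3 IP overlapped its input (-0.17 ± 0.09, adjusted p = 0.188), and GFP-Mkrn3 IP was higher than GFP IP (0.44 ± 0.10, adjusted p = 0.00152). The ratio beyond GFP was 0.41 ± 0.14 (adjusted p = 0.0338), a call that 9 of 12 leave-outs end, with adjusted p up to 0.0931.

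H1f10 stood at 45.0, 53.7 and 25.1 CPM in GFP-Mkrn3 IP, 22.6, 19.6 and 19.8 in GFP IP, 27.6, 30.5 and 46.5 in GFP-Mkrn3 input, and 34.4, 56.2 and 28.3 in GFP input. It was higher in GFP-Mkrn3 IP than in GFP IP (1.01 ± 0.26, adjusted p = 0.00539) and its ratio beyond GFP was 1.19 ± 0.37 (adjusted p = 0.0241), which 6 of 12 leave-outs and 1 other setting end. In both genes the IPs do not overlap, while GFP-Mkrn3 IP overlaps its input. Of 7 tested H1 genes, 5 were called lower and 2 higher in ratio beyond GFP. Of all tested genes, 11.1% and 13.2% were called in the same order. Both higher calls are fragile to leave-outs, as given above.

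**Figure D4:**
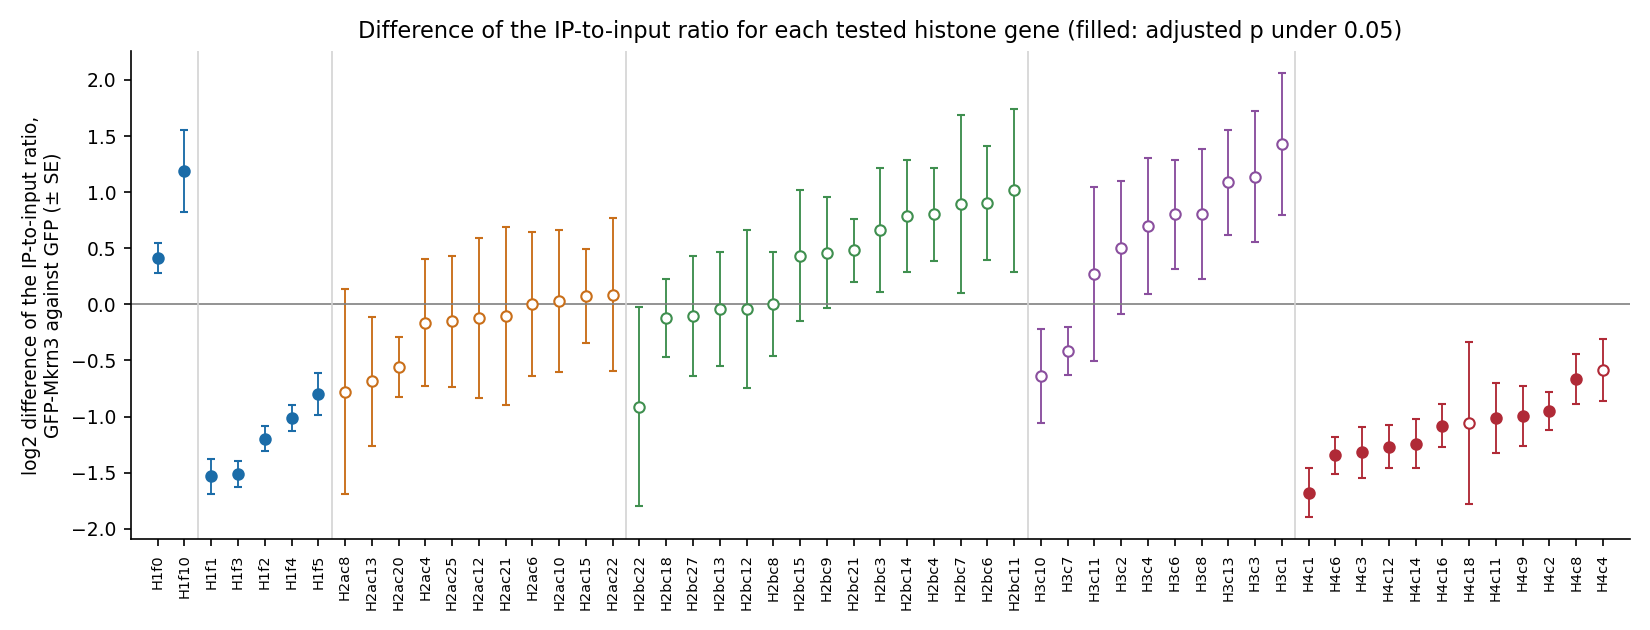
Difference of the IP-to-input ratio between GFP-Mkrn3 and GFP (log2, ± SE) for the 55 tested histone genes, ordered within family; filled points have an adjusted p under 0.05. Filled points are H1f0 and H1f10 above 0, and H1f1 to H1f5 and 10 H4 genes below 0.

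Histone H3 carries most of the modified tail residues studied in chromatin. Of 10 tested H3 genes, 9 were lower in GFP IP than in its input, with a median of -1.52, where 25.2% of all tested genes were lower. In GFP-Mkrn3 IP against its input 2 of the 10 were lower, with a median of -0.72, where 12.8% of all tested genes were lower. The difference between the changes from input in the 2 IPs was tested by the ratio beyond GFP. It called 0 of 10 (smallest adjusted p = 0.0989), with a median of 0.75. In that ratio 2 of 10 had an unadjusted p under 0.05, beside 4746 of 13052 tested genes. Without GFP-Mkrn3 IP library 3, H3c1, H3c3, H3c6 and H3c13 were called higher in ratio.

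H3 levels spread between libraries of 1 group, with an SD of the family's summed level of 38.3 CPM in GFP-Mkrn3 IP, 10.8 in GFP IP, 18.6 in GFP-Mkrn3 input and 36.5 in GFP input. H3c6 stood at 13.5, 24.9 and 6.52 CPM in GFP-Mkrn3 IP, 5.52, 10.2 and 10.7 in GFP IP, 22.4, 31.1 and 31.9 in GFP-Mkrn3 input, and 22.7, 39.3 and 22.4 in GFP input. It was lower in GFP IP (-1.69 ± 0.36, adjusted p = 0.000685) and not called in GFP-Mkrn3 IP (-0.89 ± 0.33, adjusted p = 0.0503). Summed over the family, H3 stood at 63.9, 109 and 32.8 CPM in GFP-Mkrn3 IP, 44.8, 57.8 and 66.3 in GFP IP, 123, 136 and 160.0 in GFP-Mkrn3 input, and 136, 199.9 and 137 in GFP input. Library 2 of GFP-Mkrn3 IP is the most deeply sequenced of RIP, with 14575652 counts, and library 3 had 8616616. H4 summed to 211 and 208 CPM in the same pair, but its single genes differed between these libraries in both directions. From library 2 to 3, H4c4 went from 55.5 to 27.2 CPM and H4c11 from 7.94 to 3.37. H4c14 went from 34.1 to 57.9 CPM and H4c1 from 9.35 to 16.7. The part of sequencing depth was not tested.

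H3c7 was the exception within its family, with little spread. It stood at 11.6, 13.1 and 8.43 CPM in GFP-Mkrn3 IP, 18.9, 15.2 and 20.02 in GFP IP, 44.7, 41.5 and 39.2 in GFP-Mkrn3 input, and 48.5, 52.4 and 49.97 in GFP input. It was lower in GFP-Mkrn3 IP than in its input (-1.90 ± 0.15, adjusted p = 6.71e-08), lower in GFP IP than in its input (-1.49 ± 0.15, adjusted p = 2.05e-07) and lower in GFP-Mkrn3 IP than in GFP IP (-0.68 ± 0.16, adjusted p = 0.00227). H3c10 had the same 3 calls (-1.59, -0.95 and -0.88), of which the last is ended by 5 of 6 leave-outs. The remaining calls in GFP IP against input were H3c3 (-1.82), H3c13 (-1.76), H3c1 (-1.71), H3c2 (-1.55), H3c4 (-1.45) and H3c8 (-1.05), and H3c4 and H3c8 lose the call in 2 and 4 of 6 leave-outs.

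H2A and H2B pair into the dimers that flank the H3 and H4 core. Of 11 tested H2A genes, 5 were lower in GFP-Mkrn3 IP than in input (H2ac13, -2.29; H2ac8, -1.96; H2ac12, -1.75; H2ac22, -1.55; H2ac20, -1.07) and 4 were lower in GFP IP than in input (H2ac22, -1.64; H2ac12, -1.63; H2ac13, -1.61; H2ac20, -0.51). Of all tested genes, 12.8% and 25.2% were lower in the same 2 comparisons. All 9 H2A calls were downward, and 0 of 11 were called in ratio beyond GFP (smallest adjusted p = 0.134). In that ratio 1 of 11 had an unadjusted p under 0.05, beside 4746 of 13052 tested genes. Between the IPs, H2ac13 (-1.21) and H2ac20 (-0.61) were lower in GFP-Mkrn3 IP, a share of the 11 near the 17.2% of all tested genes called lower. H2ac20 stood at 19.9, 28.2 and 12.2 CPM in GFP-Mkrn3 IP, 30.4, 32.1 and 31.4 in GFP IP, 42.2, 45.7 and 41.3 in GFP-Mkrn3 input, and 47.4, 45.4 and 41.5 in GFP input. Leave-outs end the H2ac13 and H2ac20 calls between IPs in 4 and 2 of 6 cases, the calls of H2ac8, H2ac12 and H2ac22 against GFP-Mkrn3 input in 3, 3 and 2 of 6, and those of H2ac12, H2ac20 and H2ac22 against GFP input in 2, 5 and 1 of 6.

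Of 15 tested H2B genes, 3 were lower in GFP-Mkrn3 IP than in input (H2bc18, -1.36; H2bc27, -1.23; H2bc3, -1.08) and 6 were lower in GFP IP than in input (H2bc3, -1.74; H2bc18, -1.24; H2bc4, -1.12; H2bc27, -1.12; H2bc14, -1.10; H2bc21, -0.91). Of all tested genes, 12.8% and 25.2% were lower in the same 2 comparisons. The ratio beyond GFP called 0 of 15 (smallest adjusted p = 0.175). In that ratio 0 of 15 had an unadjusted p under 0.05, beside 4746 of 13052 tested genes. H2bc18 stood at 5.46, 5.12 and 3.48 CPM in GFP-Mkrn3 IP, 7.19, 8.09 and 12.04 in GFP IP, 9.27, 13.2 and 14.1 in GFP-Mkrn3 input, and 27.4, 20.5 and 16.1 in GFP input, lower in every IP library than in any library of its input, and lower in GFP-Mkrn3 IP than in GFP IP (-0.92 ± 0.26, adjusted p = 0.00953), a call that 1 of 6 leave-outs ends. The inputs differed in the same direction without overlap (-0.80 ± 0.23), a value that missed the adjusted threshold (adjusted p = 0.71). The difference between IPs is thus not particular to the precipitates, and the ratio of H2bc18 was not called. H2bc7 was the core histone gene called higher between IPs (1.61 ± 0.57, adjusted p = 0.0309), from 26, 79 and 20 counts in GFP-Mkrn3 IP and 6, 7 and 10 in GFP IP, a call that 3 of 6 leave-outs end. Leave-outs also end the calls of H2bc3 and H2bc27 against GFP-Mkrn3 input in 5 and 2 of 6 cases, and those of H2bc14 and H2bc27 against GFP input in 2 and 3 of 6.

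As with H3, the H2B sum varied between the GFP-Mkrn3 IP libraries, at 69.6, 128 and 40.1 CPM, against 54.6, 70.4 and 87.7 in GFP IP, with 99.3, 118 and 129 in GFP-Mkrn3 input and 135, 148 and 116 in GFP input. H2A stood at 50.9, 70.8 and 30.3 CPM in GFP-Mkrn3 IP, 60.4, 59.1 and 75.7 in GFP IP, 85.2, 100.5 and 99.3 in GFP-Mkrn3 input, and 103, 115 and 77.5 in GFP input. Without library 2, GFP-Mkrn3 IP against input had 38 members lower in place of 27, among them 7 of 10 H3, 6 of 15 H2B and 7 of 11 H2A genes, and 12 of 12 H4 genes with or without it. The share of all tested genes called in that fit is not reported here, so the rise cannot be read as particular to the members.

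The fractionation experiment could test H1f0 and H2bc21 of the 72 genes, with p adjusted over 5033 genes. In Mkrn3ox cytoplasm against wt cytoplasm, 1 member was higher and 0 lower, where 4.31% of all tested genes were called higher and 6.14% lower, 10.5% in all. H1f0 stood at 229, 229 and 337 CPM in Mkrn3ox cytoplasm, against 44.0, 102 and 145 in wt cytoplasm, with no overlap (1.45 ± 0.37, adjusted p = 0.0128). The call ends without Mkrn3ox cytoplasm library 3 (adjusted p = 0.0732) or wt cytoplasm library 1 (adjusted p = 0.0712). The neuronal markers summed to 401 to 468 CPM in Mkrn3ox cytoplasm and 147 to 265 in wt cytoplasm, and the other-cell markers to 666 to 750 CPM in Mkrn3ox cytoplasm and 823 to 878 in wt cytoplasm, neither with overlap, and the part of either list was not tested. In Mkrn3ox cytoplasm against Mkrn3ox total, where 0.775% of all tested genes were called higher and 3.76% lower, 4.53% in all, H1f0 was also higher (1.35 ± 0.36, adjusted p = 0.0319), with 148, 90.2 and 73.2 CPM in Mkrn3ox total, and 5 of 6 leave-outs end that call. In wt total H1f0 stood at 59.5, 57.7 and 59.0 CPM. Mkrn3ox total against wt total went in the same direction and was not called (0.82 ± 0.37, adjusted p = 0.236).

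In Mkrn3ox total against wt total, 1 member was higher and 0 lower, where 3.56% of all tested genes were called higher and 3.83% lower, 7.39% in all. It was H2bc21, at 12.8, 40.5 and 13.3 CPM in Mkrn3ox total, against 3.603, 0 and 5.36 in wt total (2.75 ± 0.84, adjusted p = 0.0471), from 37 against 6 counts, and all 6 leave-outs end the call. The neuronal markers summed to 252 to 333 CPM in Mkrn3ox total and 144 to 162 in wt total, and the other-cell markers to 824 to 913 CPM in Mkrn3ox total and 596 to 814 in wt total, again without overlap, and their part was not tested. In wt cytoplasm against wt total, where 0.616% of all tested genes were called higher and 3.16% lower, 3.78% in all, H2bc21 was higher (3.06 ± 0.84, adjusted p = 0.0433), at 38.8, 29.7 and 13.7 CPM in wt cytoplasm, and 5 of 6 leave-outs end that call. H2bc21 passed the filter on low counts with all 4 groups but not with the compared groups only, in either of these comparisons. The difference of the cytoplasm-to-total ratio between Mkrn3ox and wt called neither gene with edgeR (0.63 ± 0.52 for H1f0 and -1.94 ± 1.07 for H2bc21, 0 with an unadjusted p under 0.05), where 0.0795% of all tested genes were called higher and 0.139% lower, 0.219% in all, and DESeq2 called 0 as well.

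H1f10 had 14.6, 12.9 and 15.0 CPM in Mkrn3ox total, 10.8, 8.24 and 16.1 in wt total, 9.98, 7.63 and 10.5 in Mkrn3ox cytoplasm, and 7.76, 6.37 and 2.73 in wt cytoplasm, with 1 to 12 counts a library, and was not tested. H1f2, H1f5, H2ac6 and H2ac23 complete the 8 most counted members there, with 10 to 16 counts each, found in 4 to 6 of the 12 libraries. H1f8 had 20 counts in wt total library 1, 11 and 1 in wt cytoplasm libraries 1 and 2, and 6 in Mkrn3ox cytoplasm library 2, and none in Mkrn3ox total.

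**Figure D5:**
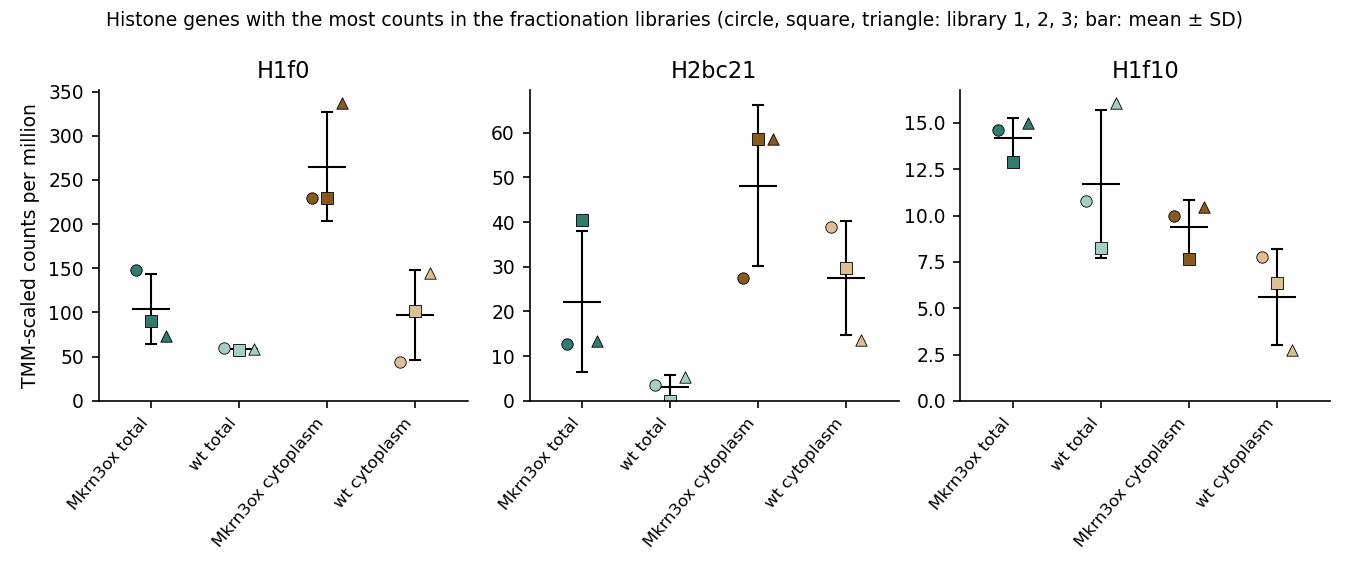
TMM-scaled CPM of H1f0, H2bc21 and H1f10 in the 12 fractionation libraries, with library 1 as circle, 2 as square and 3 as triangle, and mean ± SD. All 3 Mkrn3ox cytoplasm libraries lie above all wt cytoplasm libraries for H1f0 (229 to 337 against 44.0 to 145 CPM).

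Other genes of histone supply were grouped by known roles. Of 9 histone genes listed as replication-independent, 5 had a higher and 0 a lower ratio beyond GFP, with a median of 0.47, where 13.2% of all tested genes were called higher and 11.1% lower. They were H3f3a (1.26) and H3f3b (0.41), which encode H3.3, H2az1 (1.09) and H2az2 (0.55), which encode H2A.Z, and the centromeric Cenpa (0.86). In GFP IP against input 0 of the 9 were higher and 7 lower (25.1% and 25.2% of all tested genes), with H3f3a lower by 1.99 and H2az1 by 1.39, while in GFP-Mkrn3 IP against input 1 was higher and 5 lower (13.9% and 12.8% of all tested genes). H3f3a stood at 103, 97.0 and 102 CPM in GFP-Mkrn3 IP, 37.3, 46.4 and 51.1 in GFP IP, 182, 179 and 139.5 in GFP-Mkrn3 input, and 159, 172 and 200.2 in GFP input, so it fell less from input with GFP-Mkrn3 than with GFP, the reverse of H4c14. H1f0 and H1f10 are members here and were left out of that list.

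Of 21 tested factors of histone message processing and transcription, 0 had a higher and 5 a lower ratio beyond GFP, beside the same 13.2% and 11.1% of all tested genes. The 5 were Lsm11 (-0.66), a part of the U7 particle that cuts the histone message end, Srrt (-0.56), Casp8ap2 (-0.43), the cleavage factor Cpsf2 (-0.41) and Upf1 (-0.38), a helicase of message decay. Slbp itself was higher in GFP-Mkrn3 IP than in GFP IP (0.31, adjusted p = 0.0265) and lower in GFP IP than in its input (-0.38, adjusted p = 0.0057), and its ratio was not called. Of 31 S phase genes 5 had a higher ratio (among them Rfc3, 0.69; Cdt1, 0.63; Gins2, 0.53; Tk1, 0.47) and 9 a lower one, led by the polymerase subunit gene Pola1 (-0.98) and the chromatin factor Uhrf1 (-0.71); their share of higher calls is near the 13.2% of all tested genes. Of 11 replication chaperones 3 had a higher ratio (Asf1b, 1.55; Asf1a, 1.18; Chaf1b, 0.60) and 2 a lower one (Chaf1a, -0.73; Hells, -0.60). The medians were -0.18, -0.10 and -0.14 for these 3 lists, beside 0.04 for all tested genes. In the input comparison 0 genes of the 4 lists were called.

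In the fractionation experiment, E2f1, a transcription factor of S phase entry, was higher in Mkrn3ox cytoplasm than in wt cytoplasm (3.15 ± 0.72, adjusted p = 0.0061), as was Uhrf1 (1.32 ± 0.32, adjusted p = 0.00922), out of 16 tested S phase genes. In that comparison 4.31% of all tested genes were called higher and 6.14% lower, 10.5% in all. Upf1 was lower in Mkrn3ox total than in wt total (-0.72 ± 0.19, adjusted p = 0.0227), out of 13 tested processing factors. There 3.56% of all tested genes were called higher and 3.83% lower, 7.39% in all. With 2 calls and 1 call, neither share can be read as particular to its list. No other gene of the 4 lists was called in the fractionation experiment.

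After the values were seen, 31 tested protein-coding genes with a RefSeq span under 1000 bp that are not members were set beside the histone genes. Of these, 25 were lower in GFP IP than in input (median -1.30), 2 were higher and 3 lower in GFP-Mkrn3 IP than in input (median 0.23), and 21 had a higher and 0 a lower ratio beyond GFP (median 1.78). Of all tested genes, 25.2% were lower in GFP IP than in input. In GFP-Mkrn3 IP against input 13.9% were higher and 12.8% lower, and in ratio 13.2% were higher and 11.1% lower. The 12 tested H4 genes, of a family with a median span of 406 bp, had 0 higher and 10 lower ratios, beside the same 13.2% and 11.1%. The part of gene span in the members' results was not tested.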

How the data were processed

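Raw counts per gene for 24 libraries (8 groups of 3) were deposited by the authors as whole numbers in 2 tables of 57010 rows, matched by gene identifier. Per the submitters' processing notes, cutadapt, STAR and HTSeq were used with the mm10 build (no versions). The annotation, strand setting, treatment of multi-mapping reads and any collapsing by molecular identifier were not described. Without a known strand setting, reads of overlapping genes cannot be told apart. Per the labels, groups and replicate numbers were taken from the sample titles. All columns were used.

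RIP and fractionation had a fit each in edgeR 4.0.16 (R 4.3.3): TMM scaling, filterByExpr, 4 group means, no block, the quasi-likelihood F test (two-sided), Benjamini-Hochberg adjustment over all tested genes and a threshold of 0.05, with 5 contrasts each. SE is the log2 fold change divided by the square root of F. The script was tested on simulated data. Alternatives were DESeq2 1.42.0 size factors or test, library size alone, no filter, a mean of at least 20 counts, the compared groups only, a replicate block, 2 dominant genes left out of the fractionation fit, and each library left out. No library pair had identical counts.

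The members, lists and motifs were chosen with earlier results of these data known. Named genes are the members called in any contrast and the 8 most counted per experiment; of each comparison list, up to 4 called genes per contrast, largest change first. Slbp, and further genes that complete a count of 5 or fewer, were named after their values were seen. The values of 1 S phase gene are not reported here. The list of replication-independent histone genes leaves out H1f0, H1f10, H2ac25 and H2bc27, which are members. A count of 0 allows up to 3 counts. Intervals cover counting error only.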

Additional observations from a re-analysis of the deposited data

Results flagged for a closer look

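The ratio of IP to input differed between GFP-Mkrn3 and GFP, by a test of the difference itself (edgeR's quasi-likelihood test, interaction of plasmid and IP), for 17 of 55 tested members. Of all 13052 tested genes, 13.2% were called higher and 11.1% lower by that test, 24.3% in all. The ratio was higher for H1f0 (log2 0.41) and H1f10 (1.19). It was lower for the linkers H1f1 (-1.53), H1f2 (-1.20), H1f3 (-1.51), H1f4 (-1.01) and H1f5 (-0.80). It was also lower for H4c1 (-1.68), H4c2 (-0.95), H4c3 (-1.32), H4c6 (-1.34), H4c8 (-0.66), H4c9 (-0.99), H4c11 (-1.01), H4c12 (-1.27), H4c14 (-1.24) and H4c16 (-1.08). Of these 17 calls, 13 were kept under every alternative run, and H1f0, H1f10, H4c8 and H4c11 lost the call under at least 1.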

How the results depend on the processing

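Calls in RIP kept their direction and stayed within 1.5 times in count under the alternatives run, other than the input comparison, where no filter on low counts gave 1 call in place of 0. Leave-outs gave 21 to 38 calls for GFP-Mkrn3 IP against input (27), 27 to 34 for GFP IP against input (34), 19 to 29 for GFP-Mkrn3 IP against GFP IP (24) and 13 to 23 for the ratio difference (17). The shares of all tested genes called in these leave-out fits are not reported here. Members called and kept under every alternative were 21, 24, 17 and 13 in the same order. With no filter, the higher calls were 9 between IPs (3 as reported) and 7 for the ratio difference (2 as reported). Fractionation calls of 1 member were fragile: leave-outs gave 0 to 0 for Mkrn3ox total against wt total, and 0 to 1 for Mkrn3ox cytoplasm against wt cytoplasm, wt cytoplasm against wt total, and Mkrn3ox cytoplasm against Mkrn3ox total. The count was 0 for Mkrn3ox total against wt total with no filter, and 0 for wt cytoplasm against wt total with library size alone. It was also 0 in both with the mean filter of 20 counts and with the compared groups only, but there H2bc21 was removed before testing, so these 2 settings say nothing of its call. The sign of H1f0 in the input comparison turned (-0.0041) without GFP-Mkrn3 input library 1, in leave-outs that ran to 0.054, and that of H1f5 in GFP IP against input turned (-0.021) with library size alone, both with no call; the causes were not tested. With library size alone the median log2 difference of all genes was 0.38 for Mkrn3ox cytoplasm against wt cytoplasm (0.03 as reported) and 0.23 for the ratio difference in RIP (0.04 as reported).

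The replicate block gave 24 calls between IPs, 34 for GFP IP against input, 30 for GFP-Mkrn3 IP against input, 18 for the ratio difference and 0 for the inputs. In the fractionation experiment the block gave 0 for Mkrn3ox total against wt total, 0 for wt cytoplasm against wt total, 0 for Mkrn3ox cytoplasm against Mkrn3ox total and 1 for Mkrn3ox cytoplasm against wt cytoplasm. Deviations of same-numbered libraries correlated at -0.0669 to 0.0393 in the fractionation experiment, against -0.0495 to 0.0511 for other numbers, and at -0.146 to 0.238 in RIP, against -0.247 to 0.140 for other numbers. A correlation over 0.1 was found in 0 of 18 and 2 of 18 pairs, and the labels do not tie the IP and input of 1 number to the same lysate, so the numbers were not taken as pairs, though shared lysates cannot be told from these values. With 0 counts over the 12 fractionation libraries, a level of up to 0.476 CPM is not detectable.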
